A study of Mus musculus with 8 samples.

Results

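The growth factors Areg, Hbegf, Vegfa, Igf1, Pdgfb and Pdgfc, 6 of the 32285 genes counted, were described in sorted myeloid cells of mouse heart and blood. All 6 gene symbols were found in the feature list and all are annotated as protein-coding. In the mouse build GRCm38 they lie at chr5:91139599-91148432 on the plus strand (Areg), chr17:46016993-46032369 on the minus strand (Vegfa), chr10:87858265-87937042 on the plus strand (Igf1), chr15:79995874-80014977 on the minus strand (Pdgfb) and chr3:81036416-81214040 on the plus strand (Pdgfc), with Hbegf on chromosome 18. All 4 recipient mice were Mx1Cre:c-Mybfl/fl, a strain in which an interferon-inducible Cre removes floxed c-Myb, a gene that blood stem cells need. Their own bone marrow was depleted and replaced: 2 mice received marrow of control donors and 2 received marrow of donors that had a stroke. From each mouse, live cells positive for CD45 and CD11b (a leukocyte and a myeloid surface protein) were sorted from heart and blood, tagged by organ with hashtag antibodies and pooled into 1 library. The age and sex of the recipients, the time since transplantation and the number of host cells that remained are not given in the sources used here.

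These factors are secreted or shed proteins that act on neighbouring cells. Amphiregulin (Areg) and heparin-binding EGF (Hbegf) are made as membrane precursors, are cut free by ADAM proteases and bind the EGF receptor. VEGF-A acts on endothelial cells through its receptor Kdr, and its gene is a classic target of hypoxia-inducible factors. PDGF-B is best known for recruiting pericytes to endothelium, PDGF-C is secreted in a latent form that proteases must cut, and insulin-like growth factor 1 (Igf1) is a product of tissue macrophages whose availability is set by binding proteins.

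The 250 bases before the start site are shown for the 3 members that RefSeq's promoter table holds with a window free of annotated exons, because the members differ in which myeloid cells hold them. They are written 5′ to 3′ on the strand of the gene (RefSeq, GRCm38.p6), and capitals mark matches to 6 motifs searched on both strands.
Areg, chr5:91139349-91139598, plus strand: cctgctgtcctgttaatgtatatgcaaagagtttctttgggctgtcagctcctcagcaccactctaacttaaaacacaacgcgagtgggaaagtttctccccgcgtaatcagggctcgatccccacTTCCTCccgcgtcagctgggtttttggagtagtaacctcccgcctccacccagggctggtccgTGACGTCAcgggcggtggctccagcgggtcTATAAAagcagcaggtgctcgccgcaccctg
Pdgfc, chr3:81036166-81036415, plus strand: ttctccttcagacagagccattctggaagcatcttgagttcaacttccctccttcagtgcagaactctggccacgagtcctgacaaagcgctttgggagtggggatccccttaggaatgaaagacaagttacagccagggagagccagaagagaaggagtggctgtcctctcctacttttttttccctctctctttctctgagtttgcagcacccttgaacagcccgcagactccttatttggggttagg
Vegfa, chr17:46032378-46032627, minus strand: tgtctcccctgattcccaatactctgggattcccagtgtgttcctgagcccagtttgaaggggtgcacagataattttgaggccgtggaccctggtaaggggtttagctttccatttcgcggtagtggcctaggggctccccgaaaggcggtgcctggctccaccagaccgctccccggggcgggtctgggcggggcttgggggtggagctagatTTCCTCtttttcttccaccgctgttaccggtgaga

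The motifs were the PU.1 core GAGGAA, which 23.3% of 32851 promoter windows of the same length hold, the AP-1 site TGANTCA (6.75%), the cyclic AMP response element TGACGTCA (1.55%), the hypoxia response core ACGTG (16.6%), the TATA box TATAAA (12.4%) and the C/EBP site TTGCNNAA (9.56%). The Areg window held a PU.1 core 124 bases before the start site, read as TTCCTC on the printed strand, a cyclic AMP response element at 61 and a TATA box at 31. The printed Vegfa window held a PU.1 core at 35, also as TTCCTC, and the Pdgfc window held no match. Another Vegfa window, not printed, held a hypoxia response core 211 bases before its own start site. GC content was 57.2% for Areg, 50.8% for Pdgfc and 59.2% for Vegfa against a median of 52.4% over all windows. A match is a string of letters and no evidence of binding.

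The 4 libraries held between 10067873 and 16513840 gene UMIs (unique molecular identifiers, 1 per counted transcript molecule), with a median of 4005 to 4689 per barcode, and 9664 cells were kept after filtering, 4912 from heart and 4752 from blood. Clusters were named by marker genes and are called "like" a cell type for that reason: the heart held 1976 macrophage-like cells, 27.3% to 44.4% of a mouse's heart cells, while 4.34% to 8.51% lay in clusters left unnamed. The cells are called myeloid by the sort, yet B, NK and endothelial-like cells were also present, and blood of the second stroke-marrow mouse was 75.2% B cell-like against 6.13% to 10.7% in the other mice. Library 1 of the control marrow group stood apart in sex-linked transcripts, with 1 UMI of Xist and 507 of Ddx3y, against 5168 to 11062 of Xist and 1 to 3 of Ddx3y elsewhere. Levels below are UMIs of a gene per 1000000 gene UMIs of the cells summed (CPM) for each mouse, and they are compared between cells for a single gene, not between genes. In such sums, fewer cells of a type and less RNA per cell cannot be told apart. Each library is 1 animal. Tests between organs and between parts of the macrophages rest on differences within these 4 mice, and tests between donor groups compare the mice with each other. In both, edgeR draws its estimate of spread partly from all genes.

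All 6 factors were found mainly in the heart. Igf1 stood at 119.2, 150, 187.1 and 161.8 CPM in the hearts of control mice 1 and 2 and stroke-marrow mice 1 and 2, and at 0.6785, 0.7601, 0.3569 and 0.6696 CPM in their blood. Pdgfc stood at 14.11, 16.65, 25.53 and 26.34 CPM in heart, and blood held 4 UMIs in all. Every heart value of these genes lay far above every blood value. Pdgfb, the member with the most blood UMIs, was at 32.76, 37.49, 56.08 and 45.27 CPM in heart and at 14.25, 11.4, 11.78 and 5.491 CPM in blood. The heart values of Pdgfb also stayed above all blood values, although blood held 215 of its UMIs.

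The sparser members showed the same order. Hbegf had 182 UMIs in heart and 7 in blood, with mean levels of 7.514 ± 2.9 and 0.3369 ± 0.3219 CPM (SD, n = 4). Vegfa had 88 UMIs in heart and 13 in blood, or 4.137 ± 2.555 and 0.631 ± 0.3382 CPM (SD, n = 4). Areg had 194 UMIs in heart, at 1.26, 4.525, 12.36 and 11.52 CPM, and none in 4752 blood cells. With a floor of 3 UMIs over all blood cells, that allows up to 0.0631% of blood cells with a UMI and makes Areg at least 58.8-fold higher in heart, a bound that covers counting error only.

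In the paired comparison of organs, with the mouse as a block, edgeR's quasi-likelihood test with Benjamini-Hochberg adjustment called 5 of the 5 members tested higher in heart, where 10.4% of the 12071 genes tested were called higher. The groups of heart and blood values did not overlap for any of the 5, as for 15.9% of genes. The log2 fold changes were 7.97 for Igf1 (SE 0.257, edgeR adjusted p = 0.000222), 6.73 for Pdgfc (SE 0.389, adjusted p = 0.00101) and 4.38 for Hbegf (SE 0.698, adjusted p = 0.0152). They were 2.60 for Vegfa (SE 0.454, edgeR adjusted p = 0.0202) and 2.08 for Pdgfb (SE 0.313, adjusted p = 0.0129). Areg did not pass the filter on low counts. Blood held 7 UMIs of Hbegf, 13 of Vegfa, 13 of Igf1 and 4 of Pdgfc, so these genes passed that filter through heart alone. They could hardly have been called lower, and the count of members called is a description, not independent support. Without the second control mouse, Hbegf, Vegfa and Pdgfb missed the threshold (edgeR adjusted p = 0.061, 0.106 and 0.0687), without the first stroke-marrow mouse Hbegf and Pdgfb did (0.086 and 0.0954), and without the first control mouse Vegfa did (0.0873). Without the stroke-marrow mouse whose blood was mostly B cell-like, all 5 stayed past it.

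**Figure D1:**
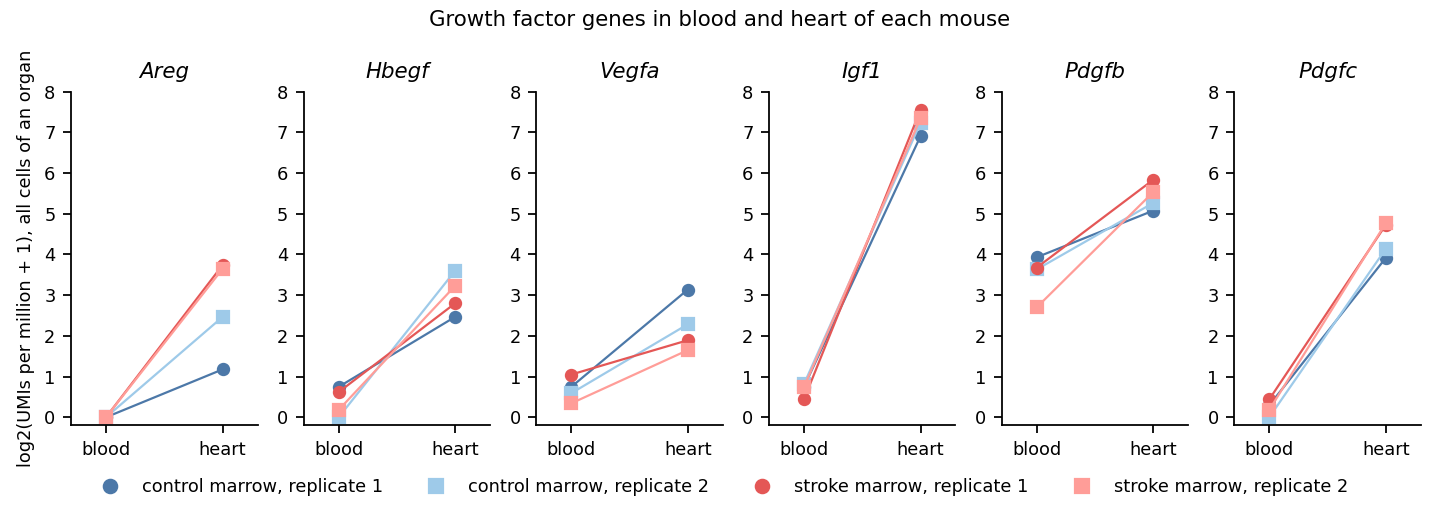
Level of each growth factor as log2(CPM + 1) in blood and heart, with 1 point per mouse and a line joining the organs of the same mouse. The heart value lies above the blood value in each of the 4 mice for every factor, and Areg is at 0 in blood.

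The partners of these factors were read from lists of pathway genes. For every list below, the share over all 12071 genes tested was 10.4% called higher in heart, and 588 genes were called lower. Some lists include the factors themselves, whose calls repeat those above. A list gene nearly absent from blood, such as Egfr, passed the filter on low counts through heart alone. Such a gene could hardly have been called lower, so the counts of list genes higher and lower are a description. Among EGF receptors and shedding proteases 2 of 8 tested genes were higher in heart and 0 lower: Egfr, the receptor of Areg and Hbegf, at 31.51 ± 9.825 CPM in heart against 0.19 ± 0.38 in blood (SD, n = 4; log2 fold change 7.64, SE 0.715, edgeR adjusted p = 0.00326), and the protease Adam9 (log2 fold change 1.34, adjusted p = 0.00251). Of 3 EGF family ligands tested, Hbegf alone was called. Of 7 genes of the VEGF family 3 were higher, namely the endothelial receptor Kdr (log2 fold change 5.92, edgeR adjusted p = 0.00224), Vegfa and Vegfb (1.83, adjusted p = 0.037). Of 20 genes of the hypoxia list only Epas1 (3.93, edgeR adjusted p = 0.0202) and the collagen hydroxylase P4ha1 (1.37, adjusted p = 0.017) were called, both higher, and the list's median log2 fold change was 0.2 against -0.02 over all genes.

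Of 8 IGF genes tested 4 were higher in heart and 0 lower. Beside Igf1 these were the binding proteins Igfbp7 (log2 fold change 5.04, edgeR adjusted p = 0.000671) and Igfbp4 (4.93, adjusted p = 0.00088) and the signalling adaptor Irs2 (1.63, adjusted p = 0.00574). Of 5 PDGF genes 4 were higher, with a median log2 fold change of 3.26: Pdgfc, Pdgfa (5.07, edgeR adjusted p = 0.00362), Pdgfb and the protease Plau (3.26, adjusted p = 0.00944). Among 13 other growth factors of repair 6 were higher and 1 lower, and the 4 with the largest log2 fold changes were Ccn1 (9.27), Bmp2 (8.40), Gdf15 (7.74) and Il10 (4.34), with edgeR adjusted p = 0.0173, 0.0257, 0.00173 and 0.00959.

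All 18 immediate early and stress genes of the list tested were higher in heart, with a median log2 fold change of 3.19, led by Egr1 (6.88, edgeR adjusted p = 0.00224), Fosb (5.24, adjusted p = 0.000416), Jun (4.83, adjusted p = 0.00088) and Ier3 (4.67, adjusted p = 0.00735). Macrophage markers were higher in heart for 9 of 11 genes, with a summed level of 5568 to 11970 CPM in heart against 93.61 to 260.2 CPM in blood. Markers of cardiomyocytes, cells the sort does not target, were higher for 6 of 6 genes, with a summed level of 99.76 to 308 CPM in heart against 1.741 to 5.428 CPM in blood, and markers of NK cells were lower for 8 of 8. The part of these differences in the results for the growth factors was not tested.

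Macrophage-like cells held most of the heart's Igf1. Their levels were 335.5, 322.7, 322.4 and 301.5 CPM in control mice 1 and 2 and stroke-marrow mice 1 and 2, a mean of 320.5 ± 14.08 (SD, n = 4). Among named classes with at least 20 cells in a mouse, classical monocyte-like cells came next at 21.95 ± 11.63 CPM, and each macrophage value lay above each value of that class. Smaller groups, read only with the mice pooled, were nearer: fibroblast-like cells at 275.4 CPM (36 UMIs in 21 cells) and unnamed clusters 13 and 15 at 246.2 and 225.4 CPM. Unnamed clusters 22 and 18 stood at 92.55 and 50.75 CPM. Mast cell or basophil-like cells stood at 77.73 CPM (5 UMIs in 20 cells), all from 1 barcode of control mouse 1. Of all Igf1 UMIs in heart, 84.5% were in macrophage-like cells (exact binomial interval 83.3% to 85.6%), which were 40.2% of heart cells, and 12.3% were in unnamed clusters. Intervals on shares of UMIs, here and below, count pooled UMIs as independent and leave out the spread between cells and between mice. An Igf1 UMI was seen in 61.7% of macrophage-like cells, or in 41.8% (interval 39.5% to 44.2%) when each cell was thinned to 2000 UMIs, and in 0.949% of heart B cell-like cells, a class that should lack the gene (0.592% thinned). The thinned share was 44.0%, 41.5%, 41.2% and 42.1% in the 4 mice. NK-like cells averaged 16.63 ± 22.54 CPM, but 10 of their 12 UMIs came from 1 barcode.

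Pdgfc followed the same class. It stood at 42.27, 35.77, 37.5 and 48.48 CPM in macrophage-like cells of the heart, 41.01 ± 5.691 on average (SD, n = 4). The next unit in order was blood dendritic cell-like cells at 1.972 ± 2.509 CPM, so the macrophage values lay above those of all other named classes with at least 20 cells in a mouse. Of the unnamed heart clusters, cluster 13 held 65.41 CPM and cluster 15 held 35.49 CPM, the mice pooled. Macrophage-like cells held 79.7% of the heart's 507 Pdgfc UMIs (interval 75.9% to 83.1%) and the unnamed clusters held 19.3%. A Pdgfc UMI was seen in 14.6% of macrophage-like cells, or in 6.18% after thinning.

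Pdgfb was spread over more classes, and its level was highest in endothelial-like cells. These stood at 230.9, 296.1 and 303.0 CPM in the 3 mice with at least 20 such cells (276.7 ± 39.78, SD), and 47.9% of the cells had a UMI. Control mouse 1 had a single endothelial-like cell and gave no value. Every endothelial-like value lay above the values of the next class, heart macrophage-like cells, at 62.06, 47.82, 69.68 and 66.66 CPM (61.55 ± 9.678, n = 4). Blood NK-like cells followed at 59.41 ± 12.98 CPM and heart nonclassical monocyte-like cells, a patrolling monocyte type, at 53.9 ± 22.2 CPM. Below them came heart NK-like cells at 39.52 ± 8.428 CPM and blood nonclassical monocyte-like cells at 36.81 ± 20.44 CPM. From the macrophages down to these, neighbouring classes in the order overlapped between mice. Heart classical monocyte-like cells at 18.58 ± 4.717 CPM lay above their blood counterparts at 3.303 CPM, but the cells came from different clusters, 311 of 350 heart cells from cluster 12 (led by F10, Thbs1 and Nr4a2) and 901 of 945 blood cells from cluster 3 (Fn1, Chil3, Ccr2). Neutrophil-like and B cell-like cells were at or under 1.6 CPM.

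Counted as molecules, macrophage-like cells still held most of the heart's Pdgfb, 59.1% of 1050 UMIs (interval 56.1% to 62.1%). Unnamed clusters held 11.5% and nonclassical monocyte-like cells 10.9%. Endothelial-like cells held 9.43% while being 2.91% of heart cells. A Pdgfb UMI was seen in 23.0% of macrophage-like cells, or in 10.8% after thinning to 2000 UMIs.

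**Figure D2:**
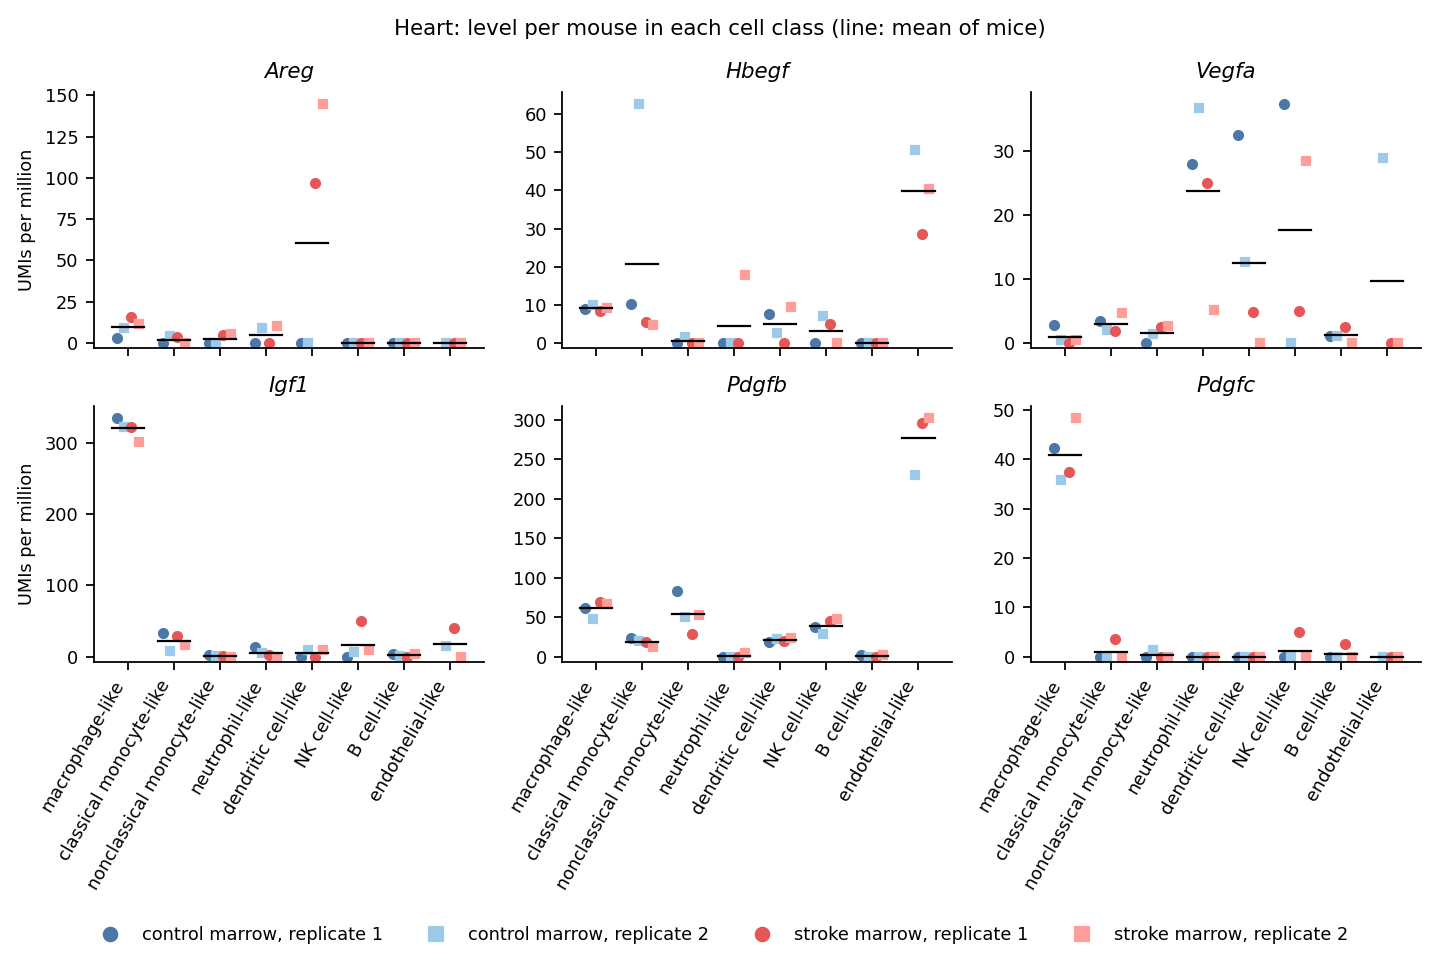
CPM of each growth factor in 8 cell classes of the heart, with 1 point per mouse and a line at the mean. Igf1 and Pdgfc are highest in macrophage-like cells, Pdgfb in endothelial-like cells, and the points of Areg, Hbegf and Vegfa scatter between mice.

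The EGF receptor ligands were sparse, and single cells carried much of their signal. Areg was found in 80 heart barcodes, and the 10 barcodes with at least 5 UMIs held 90 of its 194 UMIs. Macrophage-like cells held 57.2% of them (interval 49.9% to 64.3%), at 2.698, 8.66, 15.39 and 11.36 CPM in the 4 mice. Dendritic cell-like cells, 3.79% of heart cells, held 26.3% (interval 20.2% to 33.1%), at 0, 0, 96.55 and 144.9 CPM. That interval covers counting of pooled UMIs only, and neither barcodes nor mice. The 51 UMIs of this class lay in 5 barcodes, 1 of which held 19 and another 16. Those 2 barcodes also held 50 and 119 UMIs of macrophage markers and only 2 and 0 of dendritic cell markers. No Areg UMI was found in B, NK or endothelial-like cells of the heart.

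Hbegf was highest in endothelial-like cells, at 50.52, 28.47 and 40.4 CPM in the 3 mice with enough cells (39.8 ± 11.04, SD). These rest on 7, 5 and 2 UMIs. Classical monocyte-like cells stood at 10.06, 62.79, 5.496 and 4.599 CPM, where the second control mouse was high through 31 UMIs, 20 of them in 1 barcode. Macrophage-like cells were the steadiest class, at 8.994, 9.789, 8.396 and 9.09 CPM (9.067 ± 0.5708), and held 49.5% of the 182 heart UMIs (interval 42% to 56.9%). The 7 UMIs of neutrophil-like cells came from 1 barcode of the second stroke-marrow mouse.

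Vegfa was nearly undetected in macrophage-like cells, with 5 UMIs in 1976 cells, or 0.8633 ± 1.236 CPM (SD, n = 4), and 0 of 1765 cells after thinning, which allows up to 0.209%. Neutrophil-like cells, 9.41% of heart cells, stood at 27.83, 36.65, 24.94 and 5.082 CPM (23.63 ± 13.33) and held 28.4% of the 88 UMIs (interval 19.3% to 39.0%). NK-like cells averaged 17.66 ± 18.01 CPM. Dendritic cell-like cells stood at 32.47, 12.62, 4.827 and 0 CPM and held 26.1% (interval 17.3% to 36.6%), 22 UMIs in the control mice and 1 in the stroke-marrow mice. No neighbours in the order of Vegfa levels were apart from each other in all mice.

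**Figure D3:**
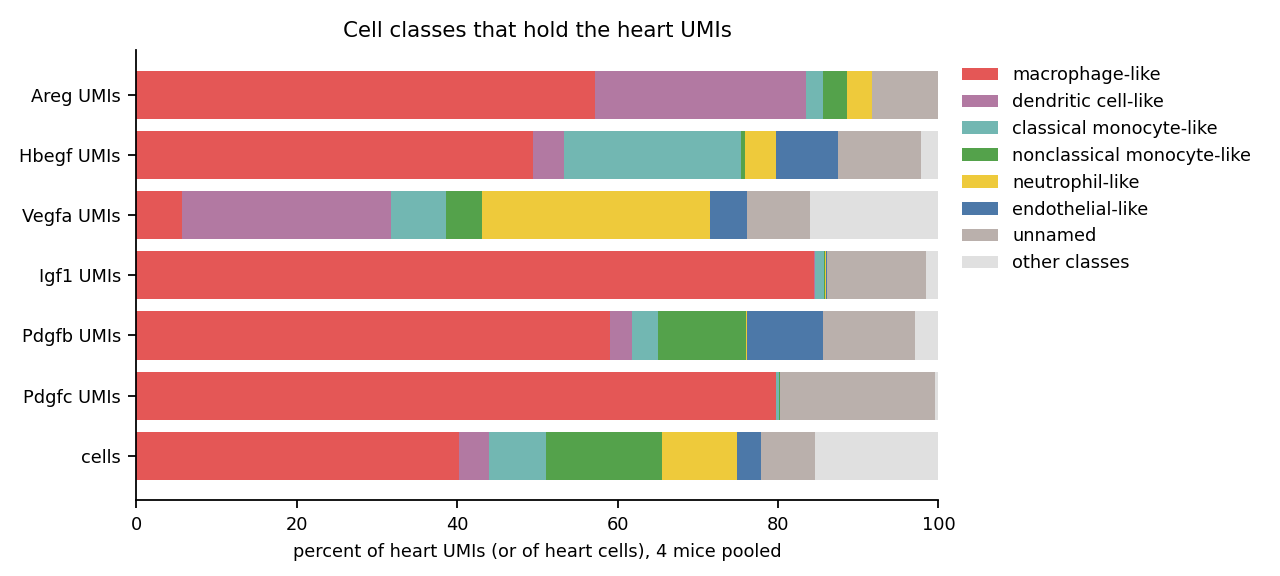
Percent of each factor's heart UMIs found in each cell class, the 4 mice pooled, beside the percent of heart cells in each class. Macrophage-like cells are 40.2% of cells and hold 84.5% of Igf1 but 5.68% of Vegfa UMIs.

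Within a class, edgeR could test heart against blood for Pdgfb alone and in nonclassical monocyte-like and NK-like cells alone, the other members and classes not passing the filter on low counts. Heart nonclassical monocyte-like cells stood at 83.07, 49.9, 29.18 and 53.45 CPM and their blood counterparts at 28.95, 29.69, 21.64 and 66.98 CPM. Pdgfb was lower in heart in the second stroke-marrow mouse and higher in the other 3, so the groups overlapped. The test called Pdgfb higher in heart (log2 fold change 0.77, SE 0.245, edgeR adjusted p = 0.0174), where 17.6% of 5908 genes were called in either direction. It missed the threshold without control mouse 1 (0.46, edgeR adjusted p = 0.339), without control mouse 2 (adjusted p = 0.0739), in DESeq2 (adjusted p = 0.55) and without the mouse block (adjusted p = 0.103). The cells of this class came from different clusters, 640 of 706 heart cells from cluster 6 (marked by Dusp16, Nr4a1 and Cd300e) and 540 of 550 blood cells from cluster 7 (Ace, Adgre4). In NK-like cells, cluster 5 in both organs, Pdgfb had a log2 fold change of -0.52 (SE 0.346) and was not called (edgeR adjusted p = 0.471, with 7.73% of 3844 genes called).

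Macrophage-like cells were then divided by a UMI of Lyve1, Timd4 or Folr2, genes of long-lived resident macrophages: 1370 cells had such a UMI and 606 had none. Per mouse the median depth was 4816.5 to 5730 UMIs with the genes and 3575 to 5001 without, so shallow resident-type cells can fall among those without. Pdgfc stood at 71.44, 37.54, 41.58 and 60.27 CPM in cells with the resident genes and at 0, 29.76, 24.06 and 14.65 CPM in cells without, with no overlap. Pdgfb went the other way, at 57.76, 40.95, 65.28 and 56.7 CPM with them and 68.3, 71.1, 84.2 and 95.26 CPM without, also with no overlap. Igf1 stood at 413.4, 341.8, 330.1 and 298.3 CPM with them and 222.5, 257.9, 297.1 and 310.7 CPM without, and these groups overlapped.

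Of the 3 members tested, edgeR called Pdgfc higher in cells with the resident genes (log2 fold change 1.37, SE 0.296, adjusted p = 0.000661) and Pdgfb lower (-0.59, SE 0.142, adjusted p = 0.00236). Of 7462 genes, 17% were called in either direction, and groups did not overlap upward for 9.46% and downward for 6.71%. Igf1 was not called (log2 fold change 0.26, SE 0.104, edgeR adjusted p = 0.0798), though it passed in 5 of the alternatives. DESeq2 called none of the 3 (adjusted p = 0.525 for Pdgfc, 0.181 for Pdgfb and 0.459 for Igf1). Egfr, picked here after its values were seen, stood at 86.01 ± 16.83 CPM in cells with the resident genes and 6.141 ± 2.728 without (SD, n = 4; log2 fold change 3.63, SE 0.245, edgeR adjusted p = 3.3e-14). Beside these, 7 of 11 macrophage markers were higher in cells with the resident genes. That list includes Lyve1 and Folr2, which define the division and are higher by construction. Neutrophil markers were lower for 3 of 3 and nonclassical monocyte markers for 3 of 5 in cells with the resident genes. The summed neutrophil markers overlapped, at 67.28 to 141.0 CPM with the resident genes and 63.01 to 636.3 CPM without. The summed nonclassical monocyte markers were 351.1 to 390.5 CPM with them and 605.9 to 710.7 CPM without. Of 4 classical monocyte markers tested, 3 were lower and 1 higher, but their sum was 3515 to 4707 CPM with the resident genes and 848 to 1531 CPM without. Most of that sum was F13a1, a coagulation factor subunit picked here after its values were seen, at 3446 to 4605 CPM with them and 548.6 to 959 CPM without. The part of other cell types in these differences was not tested.

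The files also count transcripts of fluorescent protein transgenes, and what these transgenes mark is not stated in the labels. A transgene UMI was present in 97.0% of heart neutrophil-like and 91.4% of classical monocyte-like cells but in 15.4% of macrophage-like cells, against 11% of heart B cell-like and 8.39% of endothelial-like cells. Of the macrophage-like cells, 5.97% had 5 or more such UMIs. In the 304 macrophage-like cells with a transgene UMI, Igf1 stood at 186.3, 205.1, 258.4 and 270.9 CPM, below 411.6, 346.6, 339.2 and 308.2 CPM in the 1672 cells without in every mouse, and the groups did not overlap. Igf1 was lower with a transgene UMI (log2 fold change -0.60, SE 0.123, edgeR adjusted p = 0.00311, where 1.47% of 7345 genes were called lower), and also in DESeq2 (adjusted p = 0.0151). Groups did not overlap downward for 3.68% of genes. Pdgfb (-0.30, SE 0.18, edgeR adjusted p = 0.445) and Pdgfc (-0.25, SE 0.202, adjusted p = 0.617) were not called. Cells with a transgene UMI were deeper, at medians of 5156 to 8216 UMIs against 4326 to 4978, and had 7 of 11 macrophage markers lower, 5 of 6 nonclassical monocyte markers higher and 3 of 4 neutrophil markers higher. Summed macrophage markers were 9877 to 19110 CPM with and 18380 to 21860 CPM without, and the part of monocytes or neutrophils among these cells was not tested.

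**Figure D4:**
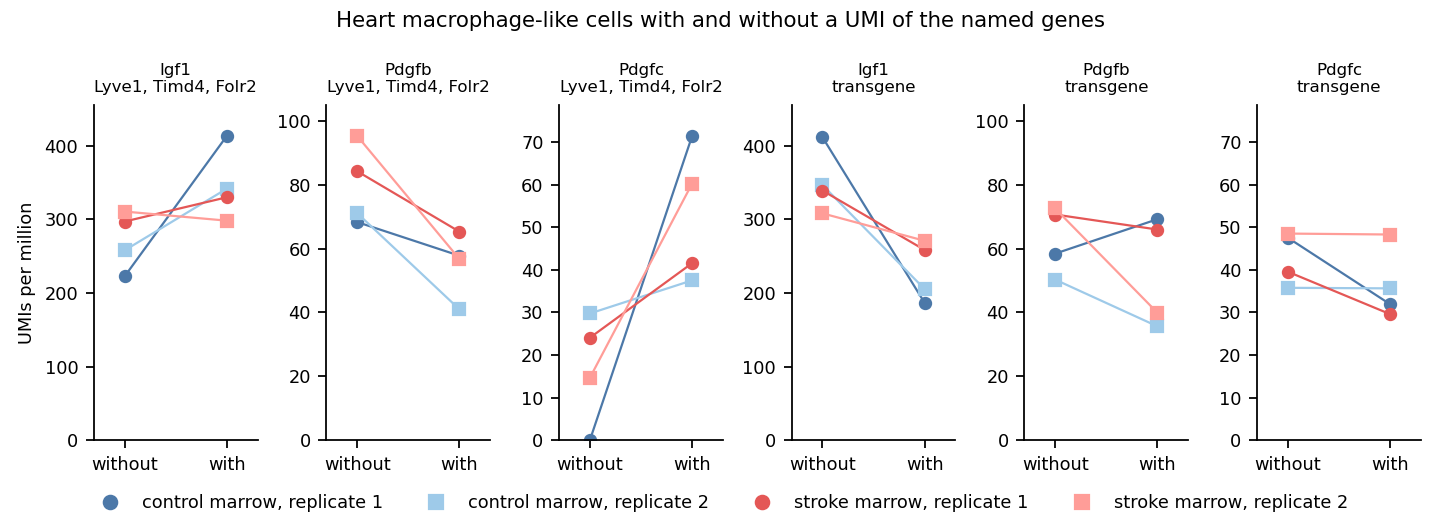
CPM of Igf1, Pdgfb and Pdgfc in heart macrophage-like cells without and with a UMI of Lyve1, Timd4 or Folr2, and without and with a transgene UMI, lines joining the same mouse. Pdgfc is higher and Pdgfb lower with the resident genes in all 4 mice, and Igf1 is lower with a transgene UMI in all 4.

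The study's design asks whether marrow of stroke donors changes these cells. Over all heart cells no member was called: Areg averaged 2.893 ± 2.309 CPM with control and 11.94 ± 0.594 CPM with stroke marrow (SD, n = 2 each), Pdgfc 15.38 ± 1.796 and 25.94 ± 0.5728, Pdgfb 35.12 ± 3.345 and 50.67 ± 7.644, and Igf1 134.6 ± 21.78 and 174.4 ± 17.89. For these 4, both stroke-marrow mice lay above both control mice, as for 19.3% of the 12479 genes tested. Vegfa averaged 5.846 ± 2.782 and 2.428 ± 0.4073 CPM with no overlap, as for 21.4% of genes in that direction, and Hbegf 7.843 ± 4.677 and 7.184 ± 1.712 with overlap. The log2 fold changes were 1.95 for Areg (SE 0.475, edgeR adjusted p = 0.554), 0.75 for Pdgfc (SE 0.161, 0.554), 0.53 for Pdgfb (SE 0.148, 0.567), 0.38 for Igf1 (SE 0.147, 0.593), -1.22 for Vegfa (SE 0.459, 0.585) and -0.16 for Hbegf (SE 0.445, 0.941). edgeR called 0 of the 6 members and 0.024% of all genes, 3 in all, while 5 members and 1028 genes had an unadjusted p under 0.05, and by DESeq2 the calls were 0 members and 50 genes. An exact permutation of 2 against 2 mice cannot go below 0.333. Areg passed without control mouse 2 (3.22, edgeR adjusted p = 0.0281) and, with Pdgfc and Pdgfb, without the filter on low counts (adjusted p = 1.01e-06, 0.0135 and 0.0249). None of the 8 pathway lists held a called gene.

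The make-up of the heart cells differed with the donor group in these mice. Macrophage-like cells were 27.3% and 40.1% of heart cells with control and 44.4% and 42.2% with stroke marrow. All 11 macrophage markers were higher in both stroke-marrow mice (summed 5568 to 10080 CPM against 11050 to 11970 CPM), as were 8 of 9 neutrophil markers (4270 to 5772 against 7955 to 13290 CPM), while 6 of 8 tested dendritic cell markers were lower (177.6 to 253 against 90.7 to 90.84 CPM). Over all genes tested, the donor groups did not overlap upward for 19.3% and downward for 21.4%. Summed classical monocyte markers were also higher (1695 to 2025 against 2205 to 2617 CPM). Those of B cells (1772 to 2568 against 793.4 to 1631 CPM) and T cells (41.86 to 55.19 against 14.94 to 21.73 CPM) were lower. None of these markers passed the test. Only erythroid markers did, 3 of 4 tested, at 5.544 to 6.303 CPM with control and 619.3 to 844.1 CPM with stroke marrow. This was not particular to heart: in blood they summed to 8.821 to 11.15 CPM with control and 624.3 to 752.9 CPM with stroke marrow. The part of cell make-up in the levels over all heart cells was not tested.

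Within macrophage-like cells the differences were smaller. Areg stood at 2.698 and 8.66 CPM with control and 15.39 and 11.36 CPM with stroke marrow, a log2 fold change of 1.03 (SE 0.404, edgeR adjusted p = 1), and Pdgfb at 54.94 ± 10.07 and 68.17 ± 2.135 CPM (0.36, SE 0.167, adjusted p = 1). Both had no overlap, as for 14.5% of genes. Igf1, at 329.1 ± 9.051 and 311.9 ± 14.78 CPM, had a log2 fold change of -0.07 (SE 0.141) with the stroke-marrow values below the control values, as for 16.5% of genes. Pdgfc (0.17, SE 0.2) and Hbegf (-0.12, SE 0.34) overlapped, and Vegfa did not pass the filter. edgeR called 0 of the 5 members tested, with 0.00968% of 10332 genes called while 2 members and 358 genes had an unadjusted p under 0.05, and by DESeq2 the calls were 0 members and 1 gene. Without control mouse 2, Areg passed (2.33, edgeR adjusted p = 0.0348). Erythroid markers summed to 3.598 to 5.648 CPM with control and 9.515 to 1914 CPM with stroke marrow in these cells.

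**Figure D5:**
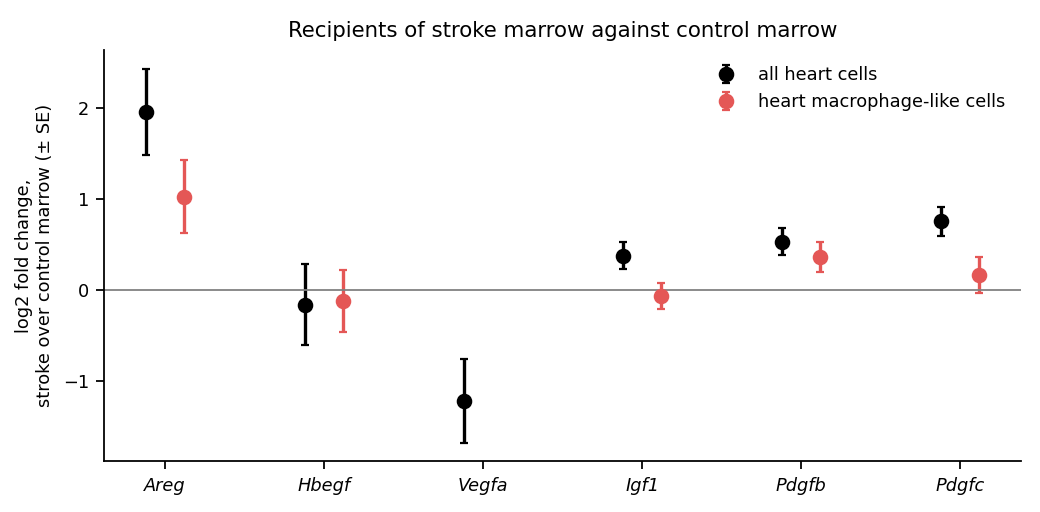
log2 fold change of stroke over control marrow with its standard error for each factor, in all heart cells (black) and in macrophage-like cells (red), 2 mice against 2. Areg is above 0 in both, Igf1 is above 0 in all heart cells and near 0 in macrophage-like cells, and Vegfa has no macrophage value.

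The single call between donor groups was Areg in heart dendritic cell-like cells. No Areg UMI was found in 128 such cells of the control mice, and 51 were found in 58 cells of the stroke-marrow mice. Pooled, the stroke-marrow cells stood at 121.0 CPM, at least 37.1-fold higher than a floor of 3 UMIs over all control cells. That bound covers counting error only and holds for the main cell filters. The control count of 0 allows up to 2.34% of cells with a UMI. edgeR called Areg higher (adjusted p = 1.86e-05) where 0.364% of 4664 genes were called higher, while DESeq2 gave no adjusted p and clustering at resolution 2 left no such test. The log2 fold change was 8.34, but 5.1 with hashtag doublets alone removed and 4.6 under stricter cell filters. Areg passed the filter on low counts through the stroke-marrow mice alone, so it could not have been called lower. The test takes each mouse's sum as 1 value and does not see how few barcodes hold it. Of the 51 UMIs 35 lay in 2 barcodes, 1 per stroke-marrow mouse, those described above with more macrophage than dendritic cell markers, and neither carried a UMI of neutrophil markers. The remaining barcodes held 9, 6 and 1 UMIs of Areg. In that order they held 5, 0 and 0 UMIs of macrophage markers and 3, 0 and 3 of dendritic cell markers. Over the whole class, 3 of 5 tested macrophage markers were called higher with stroke marrow (summed 445 to 616 CPM against 1690 to 1827 CPM), as were 2 of 2 tested neutrophil markers (20.2 to 21.01 against 803.9 to 1511 CPM). Dendritic cell markers summed to 1171 to 1348 CPM with control and 845.9 to 936.5 CPM with stroke marrow, 1 of 7 tested being lower, and of the defining markers only the neutrophil gene Ly6g was at 0 in these 3 lists. Doublet calls fell on 38 and 164 barcodes of the control libraries and on 9 and 3 of the stroke-marrow libraries, and the part of other cells or doublets in this difference was not tested. The other tests by class called no member: Pdgfb in heart nonclassical monocyte-like cells had a log2 fold change of -0.73 (SE 0.338, edgeR adjusted p = 1; 0.0498% of 6022 genes called) and Igf1 in heart classical monocyte-like cells 0.26 (adjusted p = 0.999; 0% of 6099 genes called).

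In blood the donor comparison could be made for Pdgfb alone, at 14.25 and 11.4 CPM with control and 11.78 and 5.491 CPM with stroke marrow. The values overlapped, and the log2 fold change of -0.55 (SE 0.45) was not called (edgeR adjusted p = 0.97), as was 0% of 11575 genes, with 71 genes and 0 members at an unadjusted p under 0.05 and 0 members and 4 genes called by DESeq2. The difference of the donor effect between heart and blood was 1.15 for Pdgfb on the log2 scale (SE 0.383, edgeR adjusted p = 0.744), and 0 of the 5 members with a value and 0% of 13088 genes were called, with 547 genes and 1 member at an unadjusted p under 0.05 and 1 gene by DESeq2, no member. Without stroke-marrow mouse 1, whose removal leaves the blood sample rich in B cell-like cells as the group's only one, Pdgfb was called lower in blood (-1.15, edgeR adjusted p = 0.0351) and the difference between organs was called too.

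Across 13 combinations of organ and class with at least 20 cells in each mouse, the genes with patterns most like each member were listed by Pearson's r of mean log2(CPM + 1), among 10772 genes. For Igf1 these were B3galnt1 (r = 0.974), Gas6 (0.970) and Vcam1 (0.960), for Pdgfc Gm26714 (0.937), Slc39a12 (0.935) and Ccn1 (0.932), and for Pdgfb Hectd2 (0.959), Spred2 (0.957) and Acsl4 (0.955). For Areg they were Dcstamp (0.884), Timp1 (0.877) and Mmp12 (0.841), for Hbegf Kif1a (0.856), 1200007C13Rik (0.850) and Tex14 (0.847), and for Vegfa Gm20186 (0.855), Arl5b (0.852) and Slc20a1 (0.822). Igf1 and Pdgfc reached r = 0.819 with each other. Heart endothelial-like cells, where Pdgfb and Hbegf were highest, are not among the 13 points, as control mouse 1 had 1 such cell. The heart dendritic cell-like point of Areg rests on the few barcodes described above. The 13 points share the same 4 libraries, and the values are a description.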

How the data were processed

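Single-cell RNA of sorted heart and blood cells was measured by 10x 3′ sequencing in 4 libraries, 1 mouse each. The deposited matrix holds UMI counts per gene and barcode that the authors made with Cell Ranger 7.1.0 on mm10, per the submitters' processing notes. It pools the libraries: barcode suffixes were matched to samples as 1 and 3 for control and 2 and 4 for stroke marrow, an assumption. Organs were called from hashtag counts with HTODemux (Seurat 5.3.0, quantile 0.99), 954 hashtag doublets and 214 Scrublet calls (scanpy 1.11.5) were removed, and barcodes needed 200 genes and at most 10% mitochondrial UMIs. Scrublet's thresholds differed between libraries (calls 38, 164, 9 and 3), and 14 barcode sequences occurred in more than 1 library. Leiden clustering (leidenalg 0.10.2, resolution 1) gave 24 clusters, 6 of them unnamed. For each mouse, the counts of an organ's cells or of a class with 20 or more cells were added up and tested with edgeR 4.0.16 (quasi-likelihood, TMM, filterByExpr, adjusted p under 0.05), with the mouse as a block between organs and between parts of the macrophages. DESeq2 1.42.0 was an alternative, with others given in the closing section. The scripts were tested on simulated data.

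The named genes are the 6 members, up to 4 called genes per list with the largest changes between organs or donors, and the 3 most alike genes per member. The members and lists were chosen with earlier results of these data known.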

Additional observations from a re-analysis of the deposited data

Results flagged for a closer look

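In 48 groups of 4 mice with enough UMIs, the highest or lowest mouse was set against the others by the gap to its nearest neighbour over the whole range (Dixon's test), which chance passes in about 1 in 20 groups, or 5 percent. Both groups that passed concern Hbegf in the heart of control mouse 2. In classical monocyte-like cells this mouse stood at 62.79 CPM and the other 3 at 4.599 to 10.06 CPM, from 31 UMIs in 6 barcodes, 20 of them in 1. In macrophage-like cells with a transgene UMI it stood at 20.06 CPM and the others at 6.3 to 8.076 CPM, from 9 UMIs, 5 of them in 1 barcode.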

How the results depend on the processing

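Higher levels in heart than in blood kept their direction for all 5 members tested under each alternative run, and 2 to 5 members were called when 1 mouse was left out. Within classes the 1 call, Pdgfb in nonclassical monocyte-like cells, was not made in DESeq2, which instead called 3 members that edgeR's filter on low counts had left untested: Igf1 and Pdgfb in classical monocyte-like and Vegfa in neutrophil-like cells. Within classes 7 were called without that filter, 0 with no replicate block and 0 to 3 with 1 mouse left out. Between donor groups the calls over all heart cells went from 0 to 3 without the filter and to 0 to 1 with 1 mouse left out; blood, macrophage-like cells and the difference between organs also gave 0 to 1. In the other classes the 1 call became 0 in DESeq2, 2 without the filter, 0 with clustering at resolution 2 and 1 to 2 with 1 mouse left out. For cells with Lyve1, Timd4 or Folr2 the 2 calls became 0 in DESeq2 and 3, with Igf1 added, without the filter, without stroke mouse 2, with organs from the hashtag ratio, under stricter cell filters and at resolution 2. For the transgene the 1 call became 2 without the filter. Thinning moved the share of macrophage-like cells with a UMI from 61.7% to 41.8% for Igf1, from 23.0% to 10.8% for Pdgfb and from 14.6% to 6.18% for Pdgfc.

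Directions turned only for uncalled donor effects. For Hbegf in all heart cells the log2 fold change of -0.16 ran from -0.62 to 0.65 with 1 mouse left out and was 0.13 under stricter cell filters; in macrophage-like cells its -0.12 became 0.05 with hashtag doublets alone removed and 0.19 at resolution 2. Pdgfc in macrophage-like cells ran from -0.03 to 0.35 with 1 mouse left out. The causes were not tested. Replicate numbers only name the mice (correlation of deviations -0.301 in heart over 8320 genes and -0.259 in blood over 8127), and a replicate block between donor groups changed none of 14 results. Groups of 2 mice and UMI totals of 88 to 194 for Vegfa, Hbegf and Areg limit what could be called.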

Other observations

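Outside the named classes, 2 unnamed heart clusters carried the same factors as macrophage-like cells. Each was left unnamed because a second class also scored high on its markers. In cluster 13 the scores were 4.17 for cardiomyocyte and 1.61 for macrophage, and in cluster 15 they were 1.66 for macrophage and 1.31 for neutrophil. Their median depths were 4817.5 and 8075 UMIs, and the part of mixed barcodes was not tested. Cluster 13 (148 cells; Cd207, Cxcl13 and Vsig4 among its leading genes, beside the cardiomyocyte genes Nppa, Myl7 and Tnnt2) held 246.2 CPM of Igf1, 65.41 of Pdgfc, 60.28 of Pdgfb and 16.67 of Hbegf, the 4 mice pooled. Cluster 15 (113 cells; Cxcl2, Il1r2, Acod1) held 225.4 CPM of Igf1, 63.67 of Pdgfb, 35.49 of Pdgfc and 11.48 of Areg. Heart cells like fibroblasts numbered 21 and held 36 UMIs of Igf1 (275.4 CPM, pooled).

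The macrophage-like class was made of clusters 1 (Cadm1, Creb5, Ms4a7, Cxcl16) and 2 (Lyve1, Folr2, Cbr2, Gas6, Cd163), with 988 cells each. Pdgfc stood at 20.68 to 30.78 CPM per mouse in cluster 1 and 41.26 to 70.0 CPM in cluster 2, and Pdgfb at 63.77 to 93.01 CPM and 31.79 to 60.19 CPM, values of a clustering that used these cells' own genes.

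Igf1, Pdgfb and Pdgfc were also read in the same macrophage-like cells. With each cell thinned to 2000 UMIs, Pdgfb was seen in 10.3% of 738 cells with an Igf1 UMI and in 11.1% of 1027 without, and Pdgfc in 5.96% and 6.33%. Of 190 cells with a Pdgfb UMI, 4.74% had a Pdgfc UMI, against 6.35% of the rest. These cells share 4 libraries, and the shares were not tested.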
